A study of Mus musculus with 24 samples.

Results

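Cortactin (Cttn) and 8 genes of the Arp2/3 complex (Actr2, Actr3, Arpc1a, Arpc1b, Arpc2, Arpc3, Arpc4 and Arpc5) were examined in RNA-Seq counts from mouse skin at E18.5. These 9 genes were taken as a set because they act with desmoglein 1 when keratinocytes leave the basal layer of the epidermis. The rule for choosing them uses no expression value, but earlier results of these data were known when they were chosen. They were found by symbol among 54087 gene symbols, and all 9 were among the 17094 genes that passed the filter on low counts. WT skin carried intact Dsg1 genes, HET skin had lost 1 copy of the tandem Dsg1a, Dsg1b and Dsg1c genes and KO skin had lost both. The deletion was made by CRISPR/Cas9 in C57BL/6J zygotes and passed on from 1 founder, which was backcrossed, so the HET and KO groups share 1 edit. The paper compares KO animals with WT and HET littermates in size. The sources used here do not say whether the sequenced embryos were littermates. Dorsal skin was flash frozen whole, and poly(A) RNA was sequenced. The 24 libraries carried title numbers in 2 formats, of which series 1 covers 9 libraries and series 2 covers 15, and 9 numbers occurred in both. Libraries of the same number and genotype were summed to 15 columns, 5 for each genotype, which are called replicates here. The labels do not say whether title numbers stand for separate embryos, so the p-values measure the spread between these columns.

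The Arp2/3 complex starts a new actin filament as a branch on the side of an existing one. Actr2 and Actr3 are actin-related subunits that together resemble the end of a filament, while the ARPC subunits hold them and bind the mother filament. The complex is nearly inactive alone and is switched on by nucleation promoting factors such as the WASP and WAVE proteins. Cortactin binds both the complex and actin filaments and stabilises the branch point. In keratinocytes branched actin underlies the cell cortex and cell-cell junctions, and desmoglein 1 is a desmosomal cadherin of the upper epidermal layers that has been tied to cortactin through the dynein light chain Dynlt1.

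Library totals ran from 8.98 to 21 M (mega) counts, and the summed columns from 15.3 to 33.7 M. Summed Dsg1a, Dsg1b and Dsg1c expression in CPM (counts per 1 M counts of a column, after scaling) ranged from 723 to 932 for the WT columns, from 371 to 491 for the HET columns and from 0.103 to 0.901 for the KO columns, which matched every genotype label. Keratinocyte, fibroblast, endothelial, muscle, leukocyte and erythroid markers were all detected in every column, so the samples hold all layers of the skin. Both libraries of title number 35 (WT replicate 2) fell on opposite sides for Xist and Y-linked genes, which goes against a shared number, and the main results are also given without this column. The genotypes were not balanced in this respect. By these genes WT had 3 Xist and 1 Y-linked columns beside number 35, while HET and KO each had 2 Xist and 3 Y-linked columns.

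The 250 bases before the annotated start are shown for Arpc1a, Arpc1b and Actr2, since Arpc1a and Actr2 had the highest KO to WT values among the members and Arpc1b the lowest. Arpc1a and Arpc1b encode alternative forms of the same subunit and lie near each other on chromosome 5. The sequences are from RefSeq, build GRCm38.p6, read 5′ to 3′ on the strand of the gene. Capitals mark matches on either strand to the core letters bound by ETS factors (CCGGAAGT) or to the GC box bound by Sp1 (GGGCGG).
Arpc1a, chr5:145083619-145083868, plus strand: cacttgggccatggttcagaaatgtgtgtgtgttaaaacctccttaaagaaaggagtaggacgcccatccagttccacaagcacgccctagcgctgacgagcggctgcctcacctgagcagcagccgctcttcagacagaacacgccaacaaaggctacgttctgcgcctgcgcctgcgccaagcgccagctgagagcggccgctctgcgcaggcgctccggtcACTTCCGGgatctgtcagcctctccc
Arpc1b, chr5:145114006-145114255, plus strand: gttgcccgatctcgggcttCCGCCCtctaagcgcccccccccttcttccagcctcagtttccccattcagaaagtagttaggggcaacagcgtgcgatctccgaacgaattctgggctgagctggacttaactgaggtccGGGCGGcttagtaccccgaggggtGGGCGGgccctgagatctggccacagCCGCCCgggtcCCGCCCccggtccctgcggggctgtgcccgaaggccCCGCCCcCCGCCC
Actr2, chr11:20112952-20113201, minus strand: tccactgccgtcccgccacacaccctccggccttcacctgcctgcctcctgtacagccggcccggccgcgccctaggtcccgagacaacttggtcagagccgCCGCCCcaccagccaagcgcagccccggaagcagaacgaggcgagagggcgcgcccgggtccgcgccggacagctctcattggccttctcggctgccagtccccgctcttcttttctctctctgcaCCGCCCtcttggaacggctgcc

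Of the 9 members, 8 had a promoter entry, a window from 250 bases before to 50 bases after the start. The ETS letters were found in 5 of these 8 (Actr2, Actr3, Arpc1a, Arpc3 and Arpc4), against 3.89% of all 32851 promoters and 6.75% of the promoters of tested genes. In Actr2 the match lay in the bases after the start and is not printed. The Arpc1b window held no ETS match but several GC boxes, which were present in 6 of the 8 members and in 59.2% of the promoters of tested genes. The NRF1 palindrome was found in Arpc2, against 1.8% of the promoters of tested genes. A CArG box, the element bound by serum response factor, was found in Arpc4, against 1.41% of them. The TATA letters TATAAA were found in none of the 8 and in 8.01% of the promoters of tested genes. These matches describe the letters in the windows and are not evidence that a factor was bound.

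All 9 members were well expressed. They had 1441 to 9279 counts in a column and 93.75 to 281.0 CPM, while the median tested gene was at 19.89 CPM and 89.1% of tested genes were below the lowest member. Divided by the length of the annotated principal transcript, the subunits were not at equal levels. The order depends on this choice of length. Arpc3 has 0.899 kb in this transcript and 2.762 kb over all its annotated exons, compared with 1.439 and 2.033 kb for Arpc2. Over exon length Arpc3 would not stand highest. In WT skin Arpc3 was at 168 ± 12 CPM per kb (SD, n = 5) and Arpc2 at 160 ± 6.58 CPM per kb, and these 2 ARPC subunits overlapped in their ranges. Arpc5 (76.2 ± 6.27), Arpc1a (71.5 ± 2.95), Actr3 (63.5 ± 4.19) and Actr2 (61.8 ± 3.46 CPM per kb) followed, each within the spread of its neighbour or close to it. Arpc4 (47.3 ± 5.38), Cttn (47 ± 2.40) and Arpc1b (40.9 ± 4.51 CPM per kb) were lowest. Part of this order also rests on reads that could have come from more than 1 gene. Of the 50-base windows in the Actr3 transcript, 49.8% also occurred in annotated pseudogenes, and for Arpc1b 42.2% occurred in other genes or pseudogenes. The share was 10.5% for Arpc4, whose windows are shared with Ttll3, 3.52% for Cttn and at most 2.04% for the other members. Counted per 1000 windows (1 kb) that are not shared, Actr3 stood at 129 ± 8.51 CPM, next after Arpc2, and Arpc1b at 71.9 ± 7.92 CPM in WT, and Cttn became the lowest at 49.4 ± 2.53 CPM. The sources used here do not say how reads with several matches were counted, so the levels of Actr3 and Arpc1b are uncertain.

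**Figure D1:**
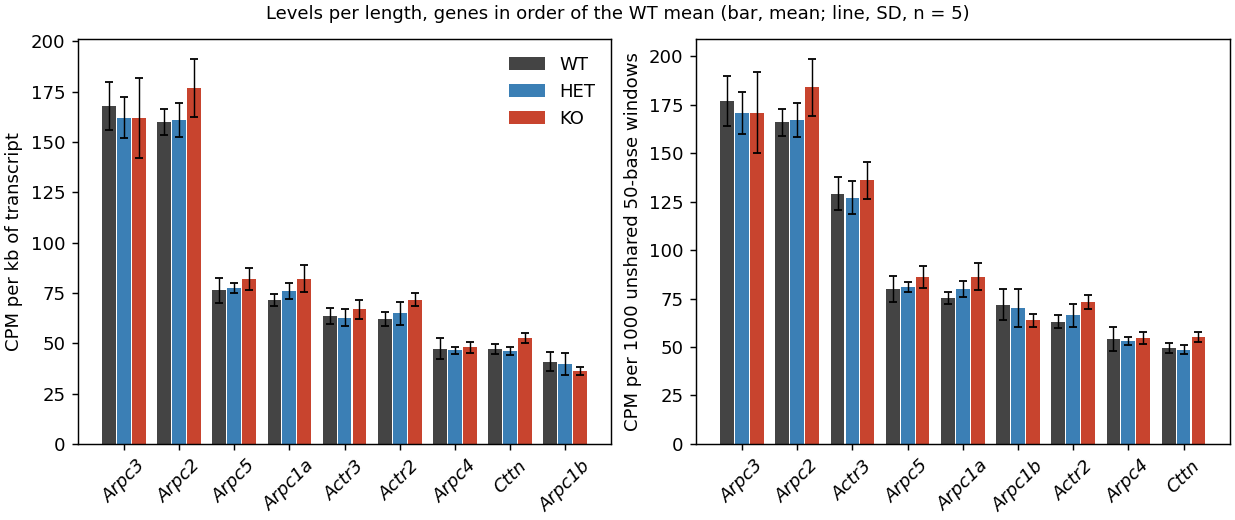
Levels of the members in WT, HET and KO skin as CPM per kb of transcript (left) and as CPM per 1000 windows of 50 bases not shared with another annotated gene (right). Bars are means and lines are SD over 5 columns. Arpc3 and Arpc2 stood highest in both panels, while Actr3 and Arpc1b changed place between them. Both panels use the principal transcript, and the place of Arpc3 depends on that choice.

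Each paralog was at a lower level per length than the member it resembles. Arpc5l, an alternative form of Arpc5, was at 58.3 ± 9.24 CPM per kb in WT (SD, n = 5), and the CPM ratio of Arpc5l to Arpc5 was 0.533 ± 0.0553 in WT, 0.546 ± 0.0445 in HET and 0.535 ± 0.0306 in KO. Hcls1, the cortactin relative of blood cells, was at 7.80 ± 0.702 CPM per kb in WT. Actr3b, an alternative form of Actr3, was at 0.488 ± 0.162 CPM per kb in WT. None of the 3 paralogs passed the test in any comparison, and their log2 fold changes in KO against WT were 0.11 for Arpc5l, 0.01 for Hcls1 and -0.31 for Actr3b (adjusted p of 0.577, 0.975 and 0.524, edgeR quasi-likelihood test with Benjamini-Hochberg adjustment over all tested genes).

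To ask whether loss of both Dsg1 copies changed these genes, KO was compared with WT. No member passed an adjusted p of 0.1, where 1.15% of all tested genes did (197 of 17094), and none had the additional log2 fold change of 1, which 0.322% of tested genes had. Of the 9 members, 7 had higher and 2 lower estimates in KO, beside 48.6% of all tested genes with higher estimates. Members were partly correlated between columns, so these counts are not of separate observations. The values were small. They ran from -0.17 for Arpc1b to 0.21 for Actr2 on the log2 scale. No member had KO columns that were all above or all below its WT columns, where 3.37% of all tested genes did. At an unadjusted p under 0.05 there were 3 members, Actr2, Arpc1a and Cttn, all with higher estimates, beside 19.3% of all tested genes in either direction and 10.1% with higher values. The call depended on the tool. With limma-voom 0 members passed, beside 2.89% of all tested genes. DESeq2 called these 3 members, with adjusted p of 0.0464 for Actr2, 0.057 for Arpc1a and 0.0711 for Cttn. In that fit 8.49% of all tested genes passed. With both libraries of number 35 kept as separate columns, 2 members passed in edgeR, Actr2 and Arpc1a, beside 7.18% of all tested genes, and without KO replicate 5 Arpc1a alone, beside 10.9%. With the level of Y-linked genes as a covariate none passed, beside 0.269%, and the values were 0.15 for Cttn, 0.21 for Actr2 and 0.20 for Arpc1a. The median over the 9 members was 0.11, against -0.009 over all tested genes, and the median absolute log2 fold change was 0.15 against 0.171. The standard errors of the members had a median of 0.0734, compared with 0.144 over all tested genes. The 95% intervals of the 9 members together spanned a KO to WT ratio of 0.766 to 1.29, and no member's interval reached a log2 fold change of 1 in either direction. These are measurements of bulk skin, in which fewer cells of a type and less RNA per cell cannot be told apart.

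**Figure D2:**
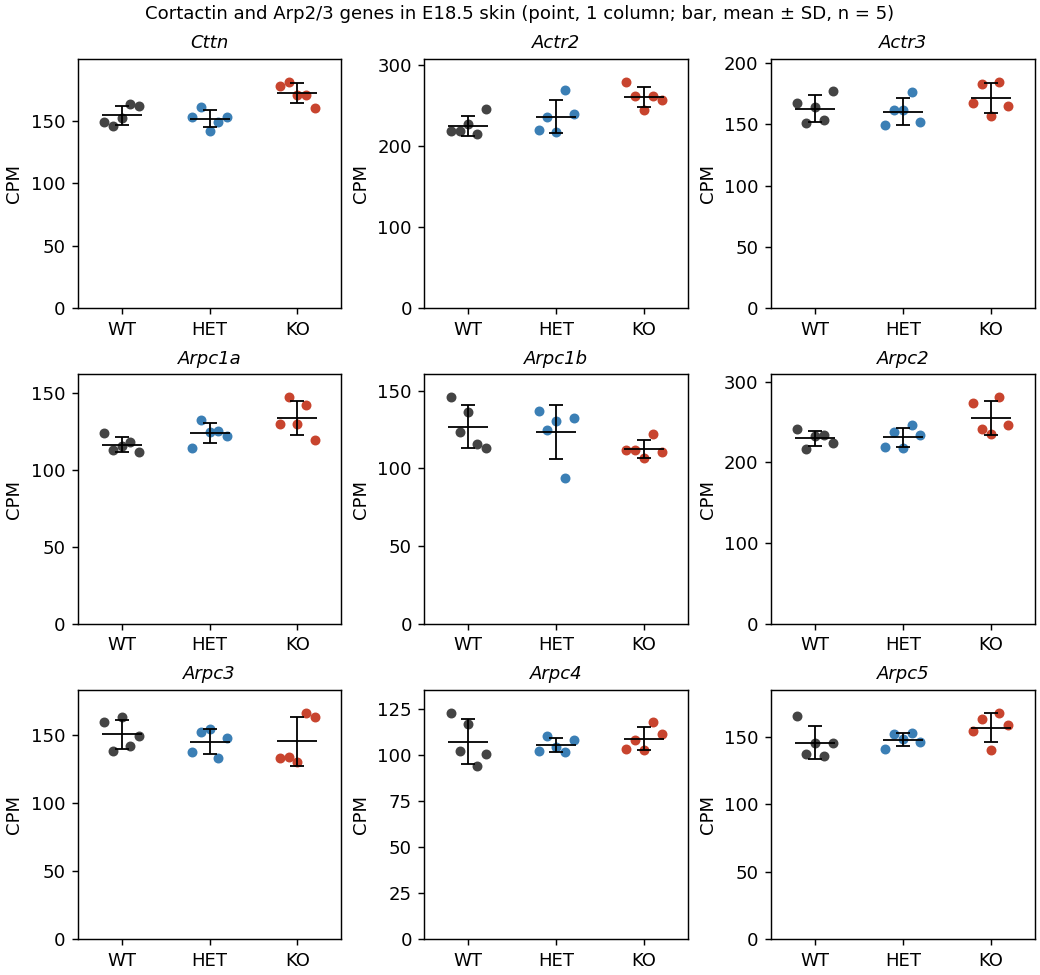
Expression of each member in CPM (vertical axis, from 0) in the 5 columns each of WT, HET and KO skin. Points are columns in order of title number, and bars are mean ± SD. No member had KO columns that were all above or all below the WT columns, although 4 of 5 KO columns lay above every WT column for Cttn, Actr2 and Arpc1a.

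Cttn encodes the branch-stabilising protein itself. Its 5 WT columns were at 148.8, 145.7, 152.1, 163.4 and 161.9 CPM, its HET columns at 152.9, 160.8, 141.9, 149.3 and 153.3 CPM, and its KO columns at 177.7, 181.4, 170.6, 170.9 and 160.5 CPM. All KO columns except replicate 5 were above the highest WT column and 4 of 5 were above the highest HET column. The mean of WT was 154.4 ± 7.90 CPM, that of HET 151.6 ± 6.88 CPM and that of KO 172.2 ± 7.98 CPM (SD, n = 5). The log2 fold change of KO against WT was 0.16 (SE 0.064), a ratio of 1.12 with a 95% interval of 1.02 to 1.23. It had an unadjusted p of 0.0243 and an adjusted p of 0.199 (edgeR), so it did not pass. Without WT replicate 2 it was 0.14, with an adjusted p of 0.367.

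Actr2 encodes the actin-related subunit Arp2. The WT columns were at 217.8, 218.0, 226.4, 214.6 and 245.5 CPM, the HET columns at 219.3, 235.0, 217.1, 268.1 and 238.7 CPM, and the KO columns at 278.9, 261.6, 244.1, 261.1 and 256.5 CPM. KO replicate 3 was just below the highest WT column and the other 4 were above it, while 1 HET column lay among the higher KO values. WT averaged 224.4 ± 12.6 CPM, HET 235.7 ± 20.5 CPM and KO 260.4 ± 12.5 CPM (SD, n = 5). The log2 fold change of KO against WT was 0.21 (SE 0.073), a ratio of 1.16 with a 95% interval of 1.04 to 1.29 and an adjusted p of 0.148 (edgeR). Without WT replicate 2 it was 0.20, with an adjusted p of 0.274. Actr3, the other actin-related subunit, had 150.9 to 177.5 CPM in WT and 156.7 to 184.8 CPM in KO, with a log2 fold change of 0.07 and an adjusted p of 0.593 (edgeR).

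Arpc1a and Arpc1b encode alternative forms of a subunit that promoting factors contact, and Arpc1b is known as the form that blood cells need. Arpc1a was at 124.0, 113.3, 115.9, 118.5 and 111.8 CPM in WT, at 114.7, 132.8, 125.0, 125.2 and 122.5 CPM in HET, and at 130.4, 147.6, 129.9, 142.3 and 119.8 CPM in KO. Here too only KO replicate 5 fell within the WT range. Arpc1b was at 146.0, 123.2, 136.4, 115.5 and 113.4 CPM in WT, at 136.9, 124.6, 130.4, 93.75 and 132.3 CPM in HET, and at 111.8, 111.6, 106.6, 122.4 and 110.5 CPM in KO. In this case 4 of 5 KO columns were below every WT column and replicate 4 was the exception. The log2 fold change of KO against WT was 0.20 (SE 0.070) for Arpc1a and -0.17 (SE 0.1) for Arpc1b, with 95% intervals of 0.05 to 0.35 and -0.38 to 0.04. The adjusted p was 0.155 for Arpc1a and 0.345 for Arpc1b (edgeR), and neither passed. Without WT replicate 2 the values were 0.19 and -0.18, with adjusted p of 0.284 and 0.431.

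Because these estimates had opposite signs, the CPM ratio of Arpc1b to Arpc1a was formed in each column after the values had been seen, a choice that itself favours a separation, and it is given with no test. It was 0.974 to 1.18 in WT, 0.749 to 1.19 in HET and 0.756 to 0.922 in KO. All 5 KO columns were below all 5 WT columns, whereas HET spanned both. Within series 1 the ratio was 0.985 to 1.20 in 3 WT and 0.753 to 0.867 in 3 KO libraries. Within series 2 it was 0.952 to 1.18 in 5 WT and 0.762 to 0.922 in 5 KO libraries. Every title number of series 1 also occurs in series 2, so the 2 series are not independent and do not repeat the separation. The libraries of title number 35, which are among these WT libraries, were at 1.12 and 1.06. The summed leukocyte markers, with all 10 detected, overlapped between genotypes, with 240 to 356 CPM in WT and 223 to 353 CPM in KO. With the leukocyte marker level in the fit, the log2 fold changes in KO against WT were 0.21 for Arpc1a and -0.15 for Arpc1b. With the suprabasal keratinocyte marker level in the fit they were 0.13 and -0.11. Arpc1b was more strongly correlated, in either direction, with markers of some other cell types over the 15 columns. Its Pearson correlation with the mean log2 CPM of the markers was 0.67 for endothelial cells and -0.73 for basal keratinocytes, compared with 0.32 for leukocytes, and within genotypes it was 0.71, -0.68 and 0.3. For smooth muscle and pericytes it was 0.42, and 0.61 within genotypes. The summed markers of these types overlapped between genotypes, with 380 to 474 CPM in WT and 353 to 607 CPM in KO for endothelial cells, 6577 to 7167 and 6438 to 7961 CPM for basal keratinocytes, and 356 to 488 and 249 to 580 CPM for smooth muscle and pericytes. For suprabasal keratinocytes the correlation was 0.73 with Arpc1a and -0.47 with Arpc1b, and within genotypes 0.63 and -0.32. For basal keratinocytes the correlation with Arpc1a was 0.58, and 0.47 within genotypes, opposite in sign to that with Arpc1b. For endothelial cells it was 0.16 with Arpc1a, and 0.32 within genotypes. The part of these cell types, and of the shared windows of Arpc1b, in the ratio was not tested.

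**Figure D3:**
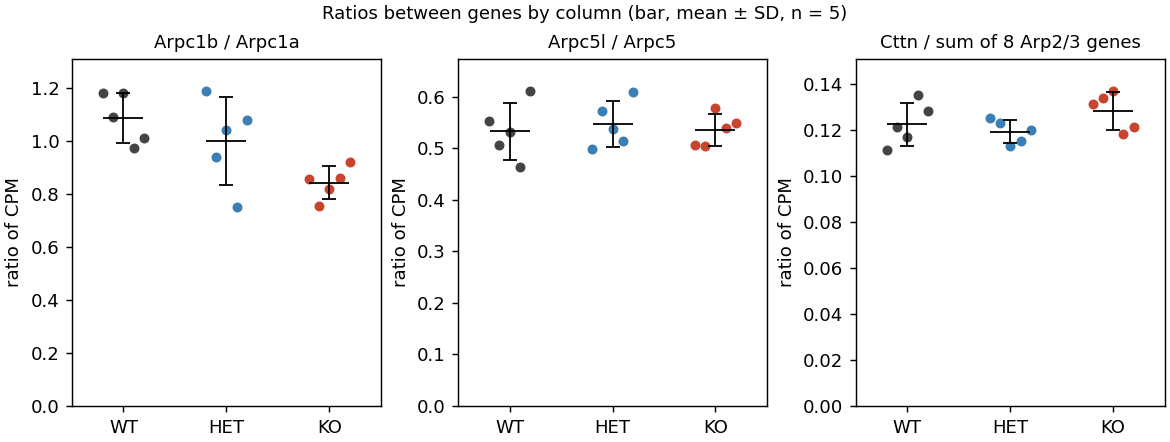
Ratios of CPM (vertical axis, from 0) in each of 5 columns for WT, HET and KO skin: Arpc1b to Arpc1a, Arpc5l to Arpc5, and Cttn to the sum of the 8 Arp2/3 members. Points are columns and bars are mean ± SD. The Arpc1b to Arpc1a ratio was at or below 0.922 in KO and at or above 0.974 in WT, and the other 2 ratios overlapped.

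None of the remaining subunits passed. Arpc2, which forms the core of the complex together with Arpc4, was at 217.1 to 241.4 CPM in WT and 234.7 to 281.0 CPM in KO, and 3 of 5 KO columns were above every WT column. Its log2 fold change was 0.15 (SE 0.071) with an unadjusted p of 0.0501 and an adjusted p of 0.259 (edgeR). Arpc4 was at 93.84 to 123.2 CPM in WT and 103.0 to 118.2 CPM in KO, with a log2 fold change of 0.02 and an interval of -0.15 to 0.19. Arpc3 had a wider spread in KO, with 133.2, 134.0, 130.4, 166.8 and 163.2 CPM, of which 3 columns were below and 1 was above the whole WT range of 138.8 to 163.6 CPM. Its log2 fold change was -0.05 with an interval of -0.23 to 0.13. Arpc5 was at 135.7 to 165.7 CPM in WT and 140.7 to 168.2 CPM in KO, with a log2 fold change of 0.11 and an interval of -0.04 to 0.26. Summed over the 8 Arp2/3 members, the WT columns had 1265 ± 61.8 CPM, the HET columns 1274 ± 35.1 CPM and the KO columns 1345 ± 70.7 CPM (SD, n = 5). The ratio of Cttn to this sum was 0.111 to 0.135 in WT and 0.118 to 0.137 in KO.

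Loss of 1 copy was examined in HET against WT. No member passed, as no tested gene did (0% of 17094), and none had an unadjusted p under 0.05, where 1.58% of all tested genes did. DESeq2 on the same columns called 0 members. The log2 fold changes ran from -0.05 for Arpc3 to 0.09 for Arpc1a. Of these, 4 were higher and 5 lower, beside 50.9% of all tested genes higher. The 95% intervals together spanned ratios of 0.841 to 1.18. For Cttn the value was -0.03, with an interval of -0.16 to 0.11.

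KO was then compared with HET, which shares its KO columns with the first comparison. Again no member passed, beside 0.333% of all tested genes, while DESeq2 called Cttn with an adjusted p of 0.0561, beside 4.62% of all tested genes. Estimates were higher in KO for 8 members and lower for Arpc1b, beside 49.3% of all tested genes higher. Cttn had the largest, at 0.18 on the log2 scale (SE 0.064), with a 95% interval of 0.05 to 0.32, an unadjusted p of 0.0107 and an adjusted p of 0.197 (edgeR). It was the only member with an unadjusted p under 0.05, where 16% of all tested genes were. Actr2 and Arpc2 both had a value of 0.14, with adjusted p of 0.341 and 0.328 (edgeR), and Arpc1b one of -0.14 with an adjusted p of 0.523. Arpc3 had a value of 0.00 with an interval of -0.18 to 0.19.

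**Figure D4:**
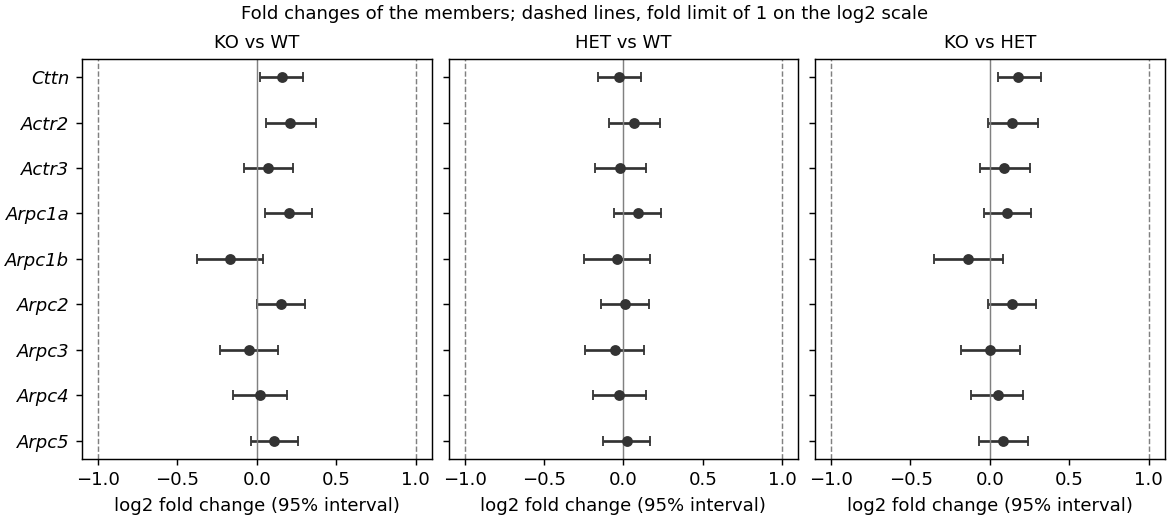
Log2 fold changes (horizontal axis) of the 9 members in the comparisons KO vs WT, HET vs WT and KO vs HET, with 95% intervals from the edgeR fit over all 15 columns. Every interval lay inside the dashed lines at a log2 fold change of 1 in either direction, and the intervals of Cttn, Actr2 and Arpc1a in KO vs WT and of Cttn in KO vs HET did not include 0.

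The summed levels of all 8 cell type marker lists overlapped between WT and KO, which does not show that cell makeup was equal. By gene, estimates were higher in KO for 7 of 8 suprabasal, 6 of 7 basal and 7 of 7 erythroid markers. They were lower for 8 of 8 fibroblast, 10 of 12 skeletal muscle and 8 of 10 leukocyte markers. Of the endothelial markers 5 were higher and 3 lower, and of the smooth muscle and pericyte markers 3 and 3. The summed suprabasal keratinocyte markers, all 8 detected, were at 59554 to 82382 CPM in WT and 73339 to 108457 CPM in KO. Most of this sum came from Krt1 and Krt10, with means of 24701 and 32655 CPM in WT. Of the 8, only Ivl (involucrin, a cornified envelope protein) passed. Its log2 fold change was 0.76 with an adjusted p of 0.0231 (edgeR), or 0.75 and 0.0875 without WT replicate 2. The summed fibroblast markers, all 8 detected, were at 24841 to 39507 CPM in WT and 16230 to 31878 CPM in KO, and none of the 8 passed. With the suprabasal marker level as a covariate the KO to WT log2 fold change was 0.11 for Cttn and 0.18 for Actr2, and with the fibroblast marker level it was 0.17 for Cttn and 0.21 for Actr2. No member passed in either fit. The part of these cell types in the values was not tested further.

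Pairs of members were correlated in both directions between columns. Among the 36 pairs of members, the median Pearson correlation of log2 CPM over 15 columns was 0.42, 16 pairs were above 0.5 and 9 were below 0. Actr3 and Arpc5 were most alike (0.76), and Actr2 and Arpc1b least (-0.69). The points share genotype, depth and cell makeup, and they differ in whether they hold libraries of 1 or both series, so these are descriptions. Correlations within other sets of genes are not given for comparison, so these values cannot be called high or low. Of 12460 genes compared, the 5 most like Cttn were Dusp7, a phosphatase of MAP kinases (0.936), Traf3ip2, the adaptor of the IL-17 receptor (0.929), Madd, a RAB exchange factor (0.929), Krt1, the keratin of suprabasal cells (0.927), and Tollip, an adaptor of Toll-like receptor signalling (0.914). After the genotype mean was removed from each column, the correlation of Cttn was 0.843 with Dusp7, 0.813 with Traf3ip2 and 0.828 with Madd. It was 0.876 with Krt1 and 0.779 with Tollip. With the mean log2 CPM of the marker lists, the correlation of Cttn was 0.71 for basal and 0.66 for suprabasal keratinocytes. Within genotypes these were 0.56 and 0.49. Krt1 was at 24701 CPM in WT and 30899 CPM in KO, with a log2 fold change of 0.32 and an adjusted p of 0.216 (edgeR), and of these 5 genes only Dusp7 passed, at 0.40 with an adjusted p of 0.0978 (0.38 and 0.219 without WT replicate 2). The 5 genes most like the mean of the 8 Arp2/3 members were Gdi2, a regulator of RAB proteins (0.877), Plekhf2 (0.859), Cib1, a calcium and integrin binding protein (0.854), Ube2k, a ubiquitin-conjugating enzyme (0.852), and Snf8, a subunit of the ESCRT machinery (0.844).

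The rest of the actin pathway was read from 8 lists of 121 names, some of them older symbols, of which 110 were tested. In KO against WT 2 genes passed with higher and 1 with lower values (Washc5, Coro2a and Nck2), which is 2.73% of those tested beside 1.15% of all genes (0.614% higher and 0.538% lower), and the median log2 fold change was 0.01. At an unadjusted p under 0.05 there were 25 (22.7%, beside 19.3% of all genes). No gene of the lists passed in HET against WT or in KO against HET. All 3 calls were close to the threshold and were lost without WT replicate 2, with adjusted p of 0.215 for Washc5 and 0.219 for Coro2a and Nck2, and with the Y-linked covariate, with 0.149 for Washc5 and 0.158 for Coro2a and Nck2 (edgeR). Their log2 fold changes without WT replicate 2 were 0.31, 0.68 and -0.32.

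Among the 22 tested genes of the list for nucleation promoting factors, which includes other subunits and partners of their complexes, 1 passed, with a higher level in KO. Washc5, a subunit of the WASH complex that drives branched actin on endosomes, went from 51.7 ± 1.88 CPM in WT to 64.2 ± 6.18 CPM in KO (SD, n = 5), with a log2 fold change of 0.31 (SE 0.076) and an adjusted p of 0.0917 (edgeR), and its groups did not overlap. Nckap1, a subunit of the WAVE complex, had a value of 0.32 with an adjusted p of 0.107, and Jmy, a factor with its own nucleating activity, one of 0.24 with an adjusted p of 0.171. Of the 17 upstream GTPases, kinases and adaptors, 1 passed, with a lower level in KO. Nck2, an SH2 and SH3 adaptor that recruits N-WASP, went from 30.5 ± 2.0 CPM to 24.3 ± 1.61 CPM, with a log2 fold change of -0.32 (SE 0.082) and an adjusted p of 0.0981 (edgeR), and its groups did not overlap. Abl2, a kinase known to phosphorylate cortactin, had a value of 0.38 with an adjusted p of 0.103, and its KO columns were all above its WT columns. Such a separation, in either direction, was seen for 3.37% of all tested genes. Within the lists it was also seen for Capzb, named here for that reason alone, at -0.1 with an adjusted p of 0.397 (edgeR). Rac3, a GTPase of the Rac family that acts on the WAVE complex, had -0.38 with an adjusted p of 0.132.

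Of the 13 tested genes for Arp2/3 inhibitors and debranching factors, 1 passed, with a higher level in KO. Coro2a, a coronin, went from 3.53 ± 0.438 CPM in WT to 5.80 ± 1.29 CPM in KO (SD, n = 5), with a log2 fold change of 0.72 (SE 0.181) and an adjusted p of 0.0978 (edgeR), and its groups overlapped. Arpin, a direct inhibitor of the complex, had a value of -0.26, and Pick1, a protein that has been described as an inhibitor, one of -0.25, with adjusted p of 0.173 and 0.199. None of the 16 other nucleators and elongators passed, and the formins Fmnl1 and Diaph1 had values of 0.38 and 0.29, with adjusted p of 0.19 and 0.24.

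None of the 18 genes for actins, capping and monomer binding passed either. Twf1, which binds actin monomers and filament ends, had 0.36 and Tmsb10, a thymosin that sequesters monomers, -0.31, with adjusted p of 0.132 and 0.16 (edgeR). Actb was at 1119 ± 128 CPM in WT and 971 ± 79.8 CPM in KO, with an adjusted p of 0.259. Actg1, the other cytoplasmic actin, was counted at 3.76 ± 0.741 CPM in WT. Of its 50-base windows 56.7% also occurred in other annotated genes or pseudogenes, compared with 14.2% for Actb, so its count is uncertain and should not be read as its level. It and Actb were picked out after their values were seen, because cells of all kinds use both genes. Among 17 genes of cortical tension and membrane linkers none passed. Myh14, a heavy chain of nonmuscle myosin II, had 0.79 and the light chain Myl6 -0.24, with adjusted p of 0.122 and 0.251. Of the Dsg1 partners linked to actin or signalling, 4 were tested and none passed, and Erbb2ip (Erbin) had 0.26 and Dynlt1a -0.45, with adjusted p of 0.202 and 0.256. Dynlt1a is among several near-identical gene copies, so its count is uncertain.

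**Figure D5:**
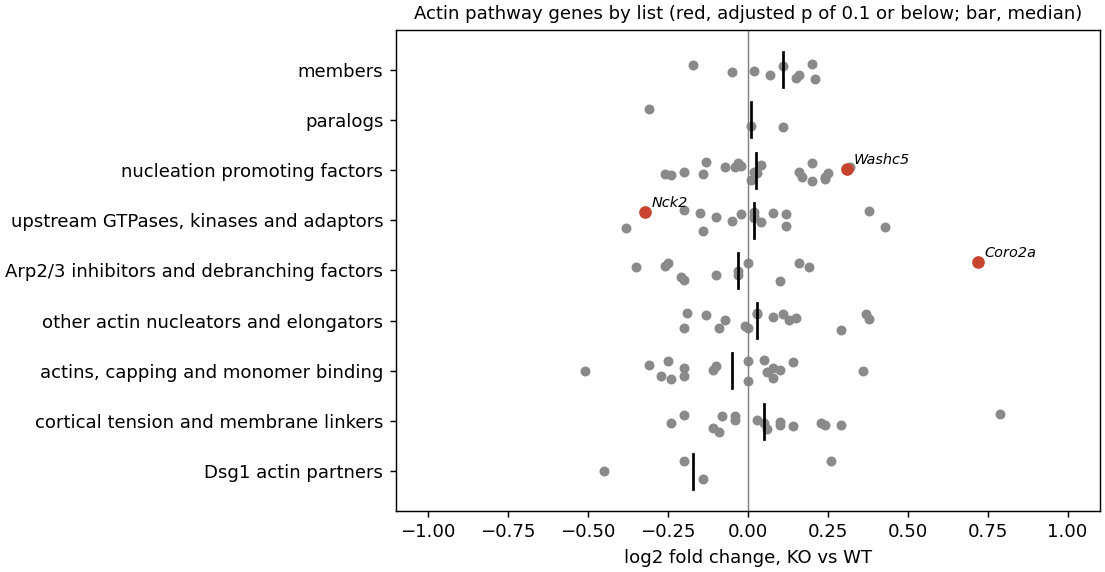
Log2 fold changes in KO against WT (horizontal axis) of the tested genes in each list, with 1 point per gene, a bar at the median of each list, and red points for genes at an adjusted p of 0.1 or below. Washc5, Nck2 and Coro2a are the only red points, and the 9 members lie between -0.17 and 0.21.

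Libraries of the same title number were compared between the 2 series, although the labels do not say that they are technical repeats. For the 8 title numbers in both series other than 35, the median log2 difference between series 2 and series 1 ran from -0.06 for Arpc1b to 0.09 for Arpc3, and it was 0.00 for Cttn. Actr2, Arpc3 and Arpc4 were higher in series 2 in 8 of 8 pairs, with medians of 0.08, 0.09 and 0.08. These medians measure a shift between the series and not a spread. Single pairs ran from -0.09 to 0.05 for Cttn and from -0.08 to 0.03 for Arpc1b. The SD of log2 CPM between columns of a genotype, a different measure, was 0.069 for Cttn and 0.162 for Arpc1b. In the series 1 libraries alone the KO to WT log2 fold changes were 0.16 for Cttn, 0.21 for Actr2, 0.25 for Arpc1a and -0.21 for Arpc1b, and in the series 2 libraries alone 0.17, 0.22, 0.17 and -0.17. None of these passed the adjusted threshold within a series.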

How the data were processed

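The deposited file holds raw read counts for each gene symbol and library. The submitters' processing notes name STAR and HTSeq, whose versions, annotation and strand setting are not given in the sources used here. The build they list, hg19, is a human build although the samples are mouse. The libraries were made with a directional kit, and part of the sequencing is described as single 50-base reads, so 50-base windows were used to count shared sequence. The members and gene lists were chosen with earlier results of these data known.

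Counts of libraries with the same title number and genotype were summed to 15 columns of 15.3 to 33.7 M counts, filtered with filterByExpr, scaled by TMM and fitted in edgeR 4.0.16 under R 4.3.3 (robust quasi-likelihood F-test, two-sided, 3 genotypes in 1 fit) with Benjamini-Hochberg adjustment over 17094 genes. The threshold was an adjusted p of at most 0.1, alone or together with an absolute log2 fold change of 1 or more. CPM used TMM-scaled totals, and log2 CPM a prior count of 1. The members are all named. In other lists, genes were named that passed in any comparison, with up to 2 more by smallest p in KO against WT, and for similar patterns the 5 genes of highest Pearson correlation with a mean of at least 100 counts. Alternatives used DESeq2 1.42.0, limma 3.58.1, other scalings and filters, single series, covariates and left-out replicates. The fibroblast, suprabasal keratinocyte, leukocyte and transcript length covariates were chosen after seeing the data. Transcript lengths came from GENCODE and promoters from RefSeq GRCm38.p6. The tests were also run on simulated counts with changes larger than those of any member. The outcome is not given here, and such a run does not show how changes as small as these are called.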

Additional observations from a re-analysis of the deposited data

Results flagged for a closer look

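For Arpc1b, HET replicate 4 stood apart from the other HET columns. It was at 93.75 CPM, while the other 4 were between 124.6 and 136.9 CPM, and its gap to the nearest of them was 0.714 of the range of the group, above the limit of 0.71 for 5 samples. This was 1 of 27 groups of 5 columns examined over the 9 members, where chance gives about 1 in 20, or 1.35. Without this column the log2 fold change of Arpc1b was 0.04 in HET against WT and -0.21 in KO against HET, with adjusted p of 1.0 and 0.189 (edgeR). The cause was not tested.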

How the results depend on the processing

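The 9 members were refitted under 32 alternatives, 15 of which left out 1 replicate each. In KO against WT the values of Cttn, Actr2, Arpc1a, Arpc2 and Arpc5 stayed above 0 and that of Arpc1b below 0 in all 32. The number of members that passed in KO against WT was 0 in edgeR, 3 with DESeq2 and 2 with number 35 as 2 columns (Actr2 at an adjusted p of 0.0890, Arpc1a at 0.0888), and 0 to 1 when a replicate was left out, with the 1 (Arpc1a, adjusted p of 0.0692) seen without KO replicate 5. Without WT replicate 2, number 35, it was 0. Over all alternatives the adjusted p ranged from 0.0711 to 0.645 for Cttn, from 0.0464 to 0.583 for Actr2 and from 0.057 to 0.551 for Arpc1a. In KO against HET 1 member passed with DESeq2 (Cttn) and 0 otherwise, and in HET against WT none passed. The cause was not tested.

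Washc5 and Coro2a passed in 10 and Nck2 in 14 of the 32 alternatives. The count of all genes passing in KO against WT depended strongly on these choices, with 197 in edgeR, 46 with the Y-linked covariate, 3 in series 1 alone, 1451 with DESeq2 and 1195 with number 35 as 2 columns. Leaving out a replicate gave 29 (without WT replicate 2) to 1878 (without KO replicate 5). In KO against HET it was 3 in series 1 alone to 790 with DESeq2, and 10 to 940 with a replicate left out (lowest without KO replicate 1, highest without KO replicate 5).

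Signs changed in 43 of 864 member values, for estimates no larger than 0.07 on the log2 scale. In KO against WT, Arpc4 was -0.022 with upper quartile factors, -0.037 with total count scaling and -0.034 with the fibroblast covariate, Actr3 was -0.0060 with the suprabasal covariate, and Arpc3 was 0.033 with the transcript length covariate. In HET against WT, Arpc2 was -0.0061 with upper quartile factors, -0.0060 with total count scaling, -0.0063 with the leukocyte covariate and -0.015 in series 1 alone, where Actr2 was -0.0054, Actr3 0.0028, Arpc1b 0.052 and Arpc4 0.039. In KO against HET, Arpc3 was -0.0022 with limma-voom, -0.027 with upper quartile factors, -0.040 with total count scaling, -0.049 in series 2, -0.14 in series 1, -8.8e-05 with only the 2 genotypes compared, -0.0043 with presence in both series as a covariate, -0.067 with the fibroblast and -0.0047 with the leukocyte covariate, and Arpc4 was -0.035 in series 1 and -0.0090 with the fibroblast covariate. Leaving out a replicate gave Arpc4 -0.024 to 0.080 in KO against WT and Arpc3 -0.050 to 0.040 in KO against HET. In HET against WT it gave Cttn -0.048 to 0.00059, Actr3 -0.060 to 0.011, Arpc1b -0.077 to 0.045, Arpc2 -0.020 to 0.029, Arpc4 -0.071 to 0.028 and Arpc5 -0.0029 to 0.072.

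No paired analysis was possible because the title numbers of the labels are not shared between genotypes, and the replicate numbers used here only name the columns. Members had 1441 to 9279 counts in a column, and for those with the smallest spread, such as Arpc5 and Arpc4 in HET (coefficients of variation of 3.26% and 3.59%), counting error was not small beside it.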
